A study of Mus musculus with 26 samples.

Results

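Smooth muscle contractile genes are 10 genes whose products build or regulate the contractile machinery of visceral smooth muscle: Myh11, Mylk, Acta2, Actg2, Lmod1, Cnn1, Tagln, Smtn, Des and Synm. They were chosen by name, with earlier results of these data known. The estimated counts of all transcripts of each gene were summed, which gave 10 of 35975 genes in the tables. The shares of all tested genes printed beside their counts are therefore a description and no independent test of the set. All 10 were among the 17063 genes with enough counts to be tested. RNA of 26 mouse colon samples was measured by sequencing of polyA RNA with paired-end reads.

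The study followed chemically induced colon tumorigenesis in wild type C57BL/6J male mice from Taconic, about 10 weeks old at the start. Treated mice received 10 mg per kg azoxymethane (AOM), a carcinogen, and from 1 week later dextran sodium sulfate (DSS), which injures the colonic epithelium, in the drinking water in cycles of 7 days. The full course held 3 cycles. Mice of day 22 were taken after the first cycle by the methods, so the days differ in DSS exposure as well as in time. The number of cycles before day 43 is not given here, since the sources differ on the time between cycles. From the day of AOM the mice ate a standard diet (STD) or a diet holding GW3965 (GW), an agonist of the liver X receptors. The study asked how colon transcription changed along the course and between the diets.

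AOM-DSS mice on either diet were sampled at days 22, 43 and 70 after AOM, with 3 samples a diet and day. Controls had neither AOM nor DSS and are called day 0. They comprised 4 samples on each diet, of which 2 followed 22 days and 2 followed 43 days of the diet. The methods place the biopsies in the distal colon at the areas of tumours. Values of day 0 samples are given in the order 22 days of diet replicates 1 and 2, then 43 days of diet replicates 1 and 2, and those of other groups in the order of replicates 1 to 3. Total estimated counts ranged from 18195345 to 41522204 a sample, with a median of 20424701. CPM values are estimated counts scaled to a common library size by trimmed mean of M-values factors, and TPM values also account for transcript length.

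2 libraries stood apart in their labels. STD day 43 replicate 1 had an RNA integrity number (RIN) of 2.6 and the highest total, 41522204, while the other libraries had RIN values of 6.8 to 10. GW day 0 replicate 2 of 43 days of diet carried a standard diet label, but its title and its cage, F, matched the GW controls. It was kept in the group of its title. The labels name no animals, and the study describes its sequenced samples as pools of animals while also counting mice a time point, so the p-values measure the spread between these samples only. Neither diet nor AOM-DSS treatment can be told apart from cage at days 0, 22 and 43, since all STD controls came from cage E, all GW controls from cage F, all STD samples of days 22 and 43 from cage A and all GW samples of those days from cage B. At day 70 each sample came from its own cage, G to L, and none of these held controls. Against the controls, treatment and cage cannot be told apart at day 70 either.

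Visceral smooth muscle shortens when myosin filaments pull on actin filaments. Calcium bound to calmodulin activates a kinase that phosphorylates the myosin light chain, and this phosphorylation switches the motor on, unlike in striated muscle, where calcium acts through troponin. In the colon, the circular and longitudinal muscle layers and the thin muscularis mucosae hold these cells, and the transcription factor SRF with its partner myocardin is known to drive many of their contractile genes.

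The samples held colonic epithelium and muscle. The summed CPM of 11 markers of simple epithelium, led by Krt8, was 2985 to 19470.2, and that of the 10 contractile genes was 1848 to 27510.3. None of the 10 genes was at 0 in any sample. Myl9, the regulatory myosin light chain of smooth muscle, and 22 other apparatus genes were also above 0 in every sample.

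The promoters of 7 of the 10 genes matched entries of RefSeq for GRCm38.p6, 300 bases each from 250 before to 50 after the start. No entry among those used was matched to Myh11, Actg2 or Tagln. The 7 promoters were searched on both strands for the CArG box, the motif that SRF binds, and for CATTCC. An exact CArG box was in 0 of the 7 and in 1.63% of 32851 promoters. With 1 C or G allowed in the middle of the box, 2 of the 7 had a match, against 9.98% of all promoters. Acta2 held matches 84 and 34 bases before the start, and Synm held 1 at 239 bases before it. CATTCC was in 4 of the 7, against 14.7% of all promoters: Acta2 at 146, Lmod1 at 130, Smtn at 222 and Mylk at 158 bases before the start. The Acta2 promoter lies at chr19:34255324-34255623 on the minus strand, that of Synm at chr7:67759693-67759992 on the minus strand and that of Lmod1 at chr1:135324563-135324862 on the plus strand. They are shown because Acta2 carries both motifs, Synm the box alone and Lmod1 CATTCC alone, with matched letters in capitals, 5' to 3' on the strand of the gene.
Acta2 promoter: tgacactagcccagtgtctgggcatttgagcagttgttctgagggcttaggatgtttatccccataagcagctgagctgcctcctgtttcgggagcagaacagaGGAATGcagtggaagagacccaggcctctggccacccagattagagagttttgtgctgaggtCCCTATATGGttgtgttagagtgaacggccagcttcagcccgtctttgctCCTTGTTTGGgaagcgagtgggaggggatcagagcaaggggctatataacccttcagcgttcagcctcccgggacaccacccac
Synm promoter: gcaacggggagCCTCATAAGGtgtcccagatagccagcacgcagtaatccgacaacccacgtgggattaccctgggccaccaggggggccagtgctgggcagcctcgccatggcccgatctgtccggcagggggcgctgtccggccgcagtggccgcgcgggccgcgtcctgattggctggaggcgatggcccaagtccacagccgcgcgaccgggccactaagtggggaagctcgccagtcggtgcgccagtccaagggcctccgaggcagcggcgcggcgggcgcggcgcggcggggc
Lmod1 promoter: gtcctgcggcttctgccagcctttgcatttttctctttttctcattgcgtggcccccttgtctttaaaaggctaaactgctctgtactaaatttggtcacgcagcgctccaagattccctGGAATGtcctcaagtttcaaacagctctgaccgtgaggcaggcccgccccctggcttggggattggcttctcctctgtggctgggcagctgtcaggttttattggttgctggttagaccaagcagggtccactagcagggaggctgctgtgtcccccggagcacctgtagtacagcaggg

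Per length, Tagln was the most abundant of the 10 genes and Lmod1 the least. In STD controls the level of Tagln was 3453 ± 1618 TPM (mean ± SD, n = 4). Actg2 followed with 1688 ± 746, Acta2 with 1422 ± 454, Cnn1 with 1249 ± 559 and Des with 932 ± 518 TPM. Mylk had 412 ± 191, Myh11 385 ± 215, Smtn 149 ± 57.3, Synm 96.6 ± 65.6 and Lmod1 37.9 ± 15.6 TPM. From Actg2 to Des, between Mylk and Myh11, and between Smtn and Synm, neighbours in this order differed by less than 1 SD of either gene. The Mylk level is not that of the full-length kinase alone. It includes Mylk-203, which encodes 159 residues, against 1950 for Mylk-201. Mylk-203 held 25.9 ± 1.93% of Mylk counts in STD controls. Being shorter (1620 against 7824 bases), it held a larger part of the Mylk TPM. Over the 26 samples the median TPM ran from 2164 for Tagln to 17.3 for Lmod1, and Tagln stood at the 99.6th percentile and Lmod1 at the 68.5th percentile of the tested genes. The 10 genes together took 1.62 ± 0.832% of estimated counts in STD controls and 1.38 ± 0.519% in GW controls.

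**Figure D1:**
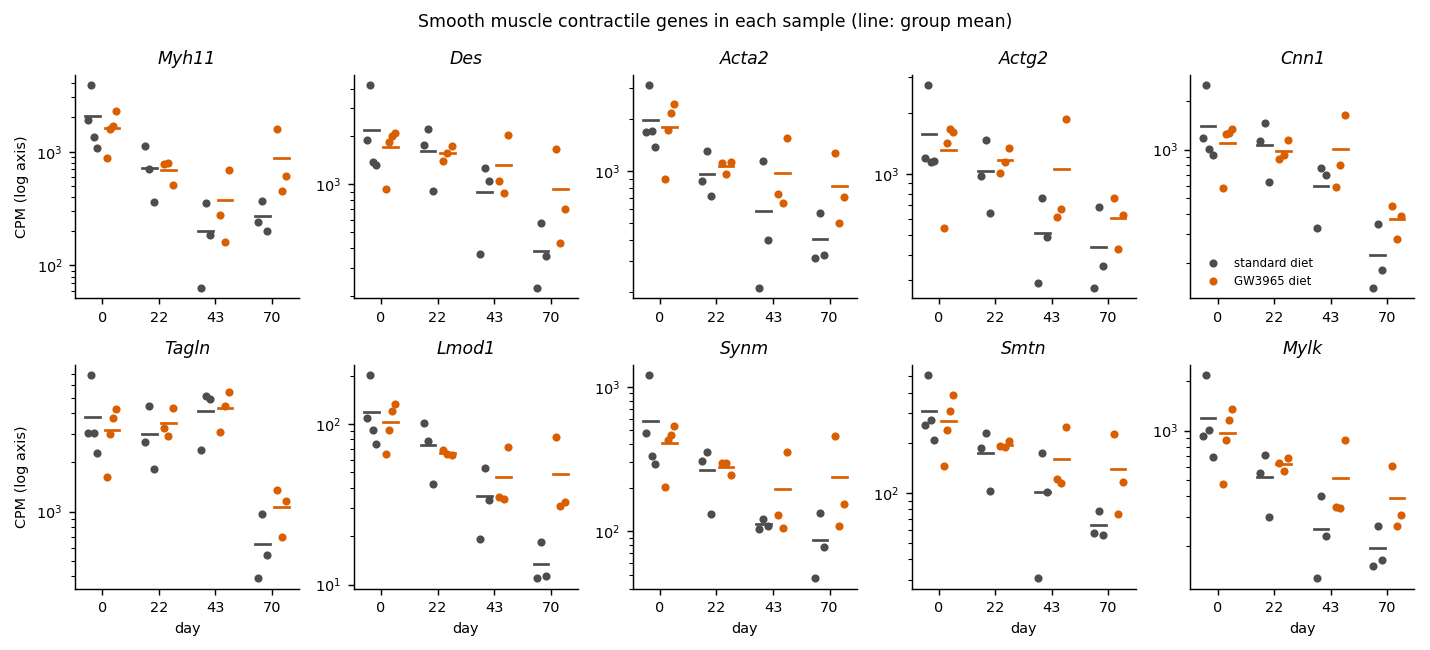
CPM of each of the 10 genes (log axis) in every sample by day, with standard diet and GW3965 diet in different colours and lines at group means. Each point is 1 sample. On the standard diet the day 70 samples lie below all day 0 samples for each gene, and the day 43 samples of Tagln lie among the day 0 samples.

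Myh11 encodes the smooth muscle myosin heavy chain, the motor itself. Its level was 1889, 3881, 1346 and 1071 CPM in STD controls, 1112, 700.0 and 361 at STD day 22, 63.2, 351 and 187 at STD day 43 and 243, 369 and 202 at STD day 70. With GW3965 Myh11 was 872, 1596, 1681 and 2299 CPM in controls, 775, 797 and 505 at day 22, 277, 162 and 689.6 at day 43 and 1594, 452 and 608 at day 70. On the standard diet every day 43 and day 70 sample was below every control, and the RIN 2.6 library was the lowest of all 26. In the GW groups the samples of days 22 and 43 were all below the controls, while GW day 70 replicate 1 overlapped them.

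Mylk encodes the myosin light chain kinase that starts contraction. It was 922, 2170.4, 1006 and 691 CPM in STD controls, 556, 714 and 302 at day 22, 128, 399 and 231 at day 43 and 152, 265 and 164 at day 70. In the GW groups it was 476, 882, 1159 and 1355 CPM in controls, 639.6, 567 and 682 at day 22, 343, 340.2 and 872 at day 43 and 606, 266 and 307 at day 70. The STD samples of days 43 and 70 were below all STD controls, whereas the GW groups of days 22, 43 and 70 overlapped the GW controls, whose first sample was low.

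Acta2 and Actg2 encode the vascular and enteric forms of smooth muscle actin. Acta2 was 1675, 3156, 1697 and 1368 CPM in STD controls, 869, 1295 and 720.0 at STD day 22, 209, 1146 and 395 at STD day 43 and 312, 568 and 324 at STD day 70. In the GW groups Acta2 was 895, 1715, 2149 and 2452 CPM in controls, 733, 649 and 1548 at day 43 and 1263, 497 and 702 at day 70. Every STD sample of days 22, 43 and 70 was below every STD control, and the GW groups overlapped. Actg2 ranged from 1146 to 2752 CPM in STD controls, from 289.8 to 762 at STD day 43 and from 274 to 684 at STD day 70. Its GW ranges were 539.9 to 1659 in controls, 612 to 1874 at day 43 and 425 to 757 at day 70, all of them overlapping.

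Lmod1 encodes leiomodin, which nucleates actin filaments in smooth muscle. Its level was 109, 202, 91.6 and 75.2 CPM in STD controls, 101, 78.4 and 42.2 at day 22, 19.2, 53.5 and 33.6 at day 43 and 10.9, 18.4 and 11.2 at day 70. On the GW diet it was 65.3, 92.3, 121 and 134 CPM in controls, 68.9, 65.2 and 63.6 at day 22, 35.1, 33.95 and 71.6 at day 43 and 82.5, 30.9 and 32.7 at day 70. The 3 STD day 70 samples were the lowest of all 26, and every GW day 70 sample was above them.

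Cnn1 and Tagln encode calponin and transgelin, related proteins that bind actin filaments. Cnn1 was 1176, 2516, 1003 and 925 CPM in STD controls, 328, 769 and 696 at day 43 and 139.9, 349.7 and 181 at day 70. Cnn1 in the GW groups was 579, 1251, 1259 and 1337 CPM in controls, 587, 809 and 1643 at day 43 and 448, 281 and 389 at day 70. All GW day 70 samples of Cnn1 were below all GW controls, and GW day 43 replicate 3 was above them. Tagln was 3033, 6887, 3034 and 2289.6 CPM in STD controls, 2659, 4429.8 and 1829 at day 22, 2373, 5112 and 4923 at day 43 and 389, 965 and 541 at day 70. Tagln in the GW groups was 1623, 3008, 3764 and 4266 CPM in controls, 3257, 2909.7 and 4303 at day 22, 3072, 4423 and 5441 at day 43 and 1349.8, 697 and 1154 at day 70. By CPM the day 43 samples of Tagln lay within or above the range of the controls on both diets, and all day 70 samples lay below it. By TPM Tagln was 2862, 5844, 2842 and 2263 in STD controls and 1034, 2334 and 1916 at STD day 43, where replicates 1 and 3 were below every STD control. Smtn encodes smoothelin, an actin-binding protein of contractile smooth muscle, and ranged from 207 to 510.3 CPM in STD controls to 30.8 to 173 at STD day 43 and 56.4 to 78.5 at STD day 70.

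Des and Synm encode desmin and synemin, intermediate filament proteins that tie the contractile lattice to the cell's periphery. Des was 1913, 4226, 1379.7 and 1319 CPM in STD controls, 365, 1262 and 1049.7 at day 43 and 223, 574 and 352 at day 70. For Synm the values were 478, 1211, 334 and 293 CPM in STD controls, 104, 121 and 108 at day 43 and 47.05, 134 and 77.5 at day 70. Both were lower in every STD day 43 and day 70 sample than in any STD control. In the GW groups Des ranged from 939 to 2108 CPM in controls, from 887 to 2041 at day 43 and from 430.2 to 1669 at day 70, and Synm from 201 to 536, 106 to 353 and 109 to 454 CPM. These GW groups overlapped.

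The same few samples were high or low for most of the genes. Among STD controls replicate 2 of 22 days of diet was the highest for all 10 genes, with a summed level of 27510.3 CPM against 9402 to 12654 in the others. Among GW controls replicate 1 of 22 days of diet was the lowest for all 10, with 6336 CPM against 12469.7 to 16491. GW day 43 replicate 3 and GW day 70 replicate 1 were the highest of their groups for all 10. Over the 26 samples the 45 pairs of members had Pearson correlations of log2 CPM from 0.304 (Myh11 and Tagln) to 0.980 (Acta2 and Mylk), with a median of 0.900, as a description of samples that share depth, diet and day.

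On the standard diet most of the genes were lower by day 43 and all of them by day 70. At STD day 22 against STD controls, 0 of the 10 genes passed edgeR's quasi-likelihood test at an adjusted p of 0.05, where 1.98% of all tested genes were lower. At an unadjusted p of 0.05 there were 3 (Myh11, Mylk and Acta2), against 8.35% of all tested genes, and DESeq2 called 1, Myh11, against 4.51%. The log2 fold changes were all below 0, from -1.50 ± 0.60 (SE) for Myh11 to -0.36 ± 0.42 for Tagln, with a median of -0.77 against 0.01 over all tested genes.

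At STD day 43, 9 of the 10 genes were lower, against 24.2% of all tested genes. The log2 fold change was -3.35 ± 0.66 for Myh11 (adjusted p = 0.00024, lower in 3 of 3 samples than in all 4 controls), -2.38 ± 0.59 for Synm (adjusted p = 0.00183) and -2.24 ± 0.50 for Mylk (adjusted p = 0.000719). Acta2, Lmod1, Smtn and Actg2 lay between -1.76 and -1.61. The smallest falls among those that passed were -1.31 ± 0.52 for Des (adjusted p = 0.0388) and -1.23 ± 0.44 for Cnn1 (adjusted p = 0.0219). Tagln had 0.12 ± 0.42 (adjusted p = 0.825), and its sign turned without day 43 replicate 2 (-0.07), without day 43 replicate 3 (-0.05) and without control replicate 2 of 43 days of diet (-0.04). In 9 genes every day 43 sample was below every control, against 22.8% of all tested genes. The median over the 10 genes was -1.69, against 0.14 over all tested genes. In bulk tissue, fewer smooth muscle cells and less RNA of these genes per cell cannot be told apart.

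RIN and the ribosomal protein share also differed at day 43, and the calls changed with either as a term. The share of counts on ribosomal protein genes was 5.77 ± 0.528% in STD controls and 16.5 ± 2.098% at STD day 43, and RIN was 10 in every control and 2.6, 8.4 and 7.8 at day 43. The ribosomal protein share is itself an expression readout that followed the time point, at 5.33 to 6.45% in STD controls and 14.4 to 18.6% at STD day 43. Neither quantity overlapped between these groups. A fit with either term can thus barely separate it from the change, and a call lost there decides nothing about the gene. With the ribosomal protein share as a term 0 of the 10 genes were called, and the log2 fold changes ran from -1.40 for Mylk to -0.49 for Tagln, with -1.12 for Myh11 and -0.68 for Acta2. With RIN as a term 1, Myh11 (-2.12), was called, and the other 8 genes called in the main fit ran from -2.11 for Synm to -0.48 for Des. Without both libraries in doubt 6 were called, and with only the controls of 43 days of diet 5. With only the groups compared 6 were called, without Des, Cnn1 and Smtn, and without a filter 8, without Des. Without the RIN 2.6 library 7 were called, and Des and Cnn1 (log2 fold changes -0.94 and -0.95) were not. Des and Cnn1 also missed the threshold without STD control replicate 2 of 22 days of diet, the highest control (-0.78 and -0.79), and Des without STD day 43 replicate 3 (-1.45). The share of all tested genes called in these alternative fits is not given here, so the lost calls do not set the 10 genes apart from other genes.

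At STD day 70 all 10 genes were lower, against 13.7% of all tested genes. Lmod1 had the largest fall, with a log2 fold change of -3.14 ± 0.47 (adjusted p = 0.000114), from 119 ± 56.6 CPM (mean ± SD, n = 4) to 13.5 ± 4.21 CPM (n = 3). Myh11 followed with -2.91 ± 0.64 (adjusted p = 0.00208), from 2047 ± 1269 to 272 ± 86.9 CPM. The other 8 genes ran from -2.75 ± 0.60 for Synm to -1.84 ± 0.49 for Actg2 (adjusted p = 0.00728). Tagln, which was not called at day 43, was among them with -2.59 ± 0.46 (adjusted p = 0.000396). In all 10 genes every day 70 sample was below every control, against 19.3% of all tested genes, and the median was -2.61 against 0.04 over all tested genes. The ribosomal protein share was 5.93 ± 1.18% and RIN 9.5 to 10 in this group. The 10 calls were kept in each of the 15 alternatives run, with RIN or the ribosomal protein share as a term and with each sample left out among them.

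**Figure D2:**
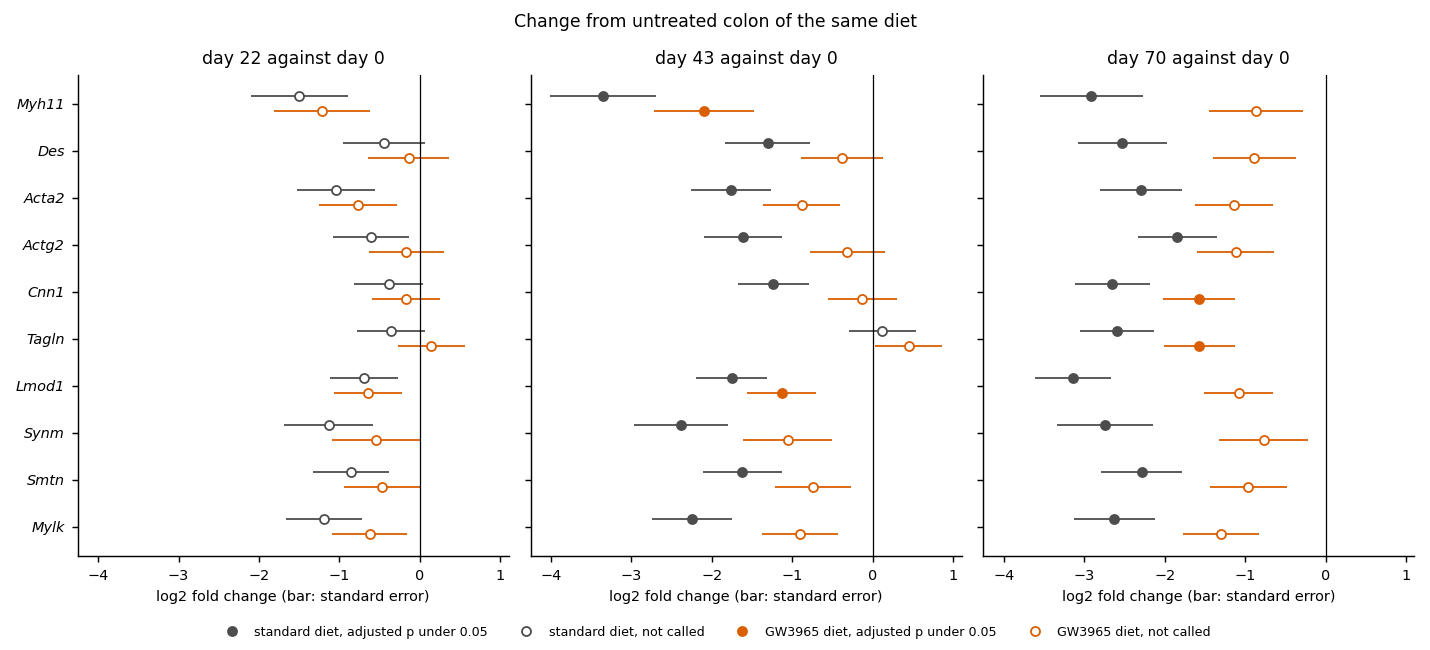
Log2 fold change of each of the 10 genes (rows of points, bars are standard errors) at days 22, 43 and 70 against day 0 of the same diet, standard diet and GW3965 diet in different colours. At day 70 the standard diet points run from -3.14 to -1.84 and the GW3965 points from -1.57 to -0.77.

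With GW3965 in the diet fewer of the genes passed at days 43 and 70. At GW day 22 against GW controls 0 of the 10 genes passed in edgeR, against 7.02% of all tested genes that were lower. The count was 0 at an unadjusted p of 0.05, against 14.3% of all tested genes, and 0 in DESeq2, against 10.8%. The median log2 fold change was -0.51, against 0.03 over all tested genes. With only the GW day 22 and control samples in the fit, 2 genes, Myh11 and Lmod1, were called.

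At GW day 43, 2 of the 10 genes were lower, against 19.3% of all tested genes, so the share of the genes that passed was near that of all tested genes. Myh11 had a log2 fold change of -2.10 ± 0.62 (adjusted p = 0.00885), from 1612 ± 584 CPM (n = 4) to 376 ± 277 CPM (n = 3). Lmod1 had -1.13 ± 0.43 (adjusted p = 0.0354). The other 8 ran from -1.06 ± 0.55 for Synm to 0.45 ± 0.42 for Tagln, with a median over the 10 of -0.82 against 0.07 over all tested genes. With the ribosomal protein share as a term 0 were called, with Myh11 at -0.74 and Lmod1 at -0.45. Its share was 13.6 ± 3.79% at GW day 43 and 6.05 ± 0.453% in GW controls.

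This count changed with single libraries. Without GW day 43 replicate 2 (RIN 6.8) 0 genes were called, with Myh11 at -1.78 and Lmod1 at -0.99. Without GW day 43 replicate 3, the library with the highest level of all 10 genes in that group and a RIN of 9.3, 5 genes were called, with Mylk, Synm and Acta2 added. The summed CPM of skeletal muscle markers was 437 in that library, against 31.3 and 28.9 in the other GW day 43 samples. In GW controls it was 23.3 to 65.5. Lmod1 was not called without GW day 43 replicate 1 (-0.97), without GW control replicate 1 of 43 days of diet (-1.05) or without the GW control whose label and title differ (-0.997), which left 1 gene each time. The Lmod1 call was also lost without a filter, with RIN as a term, with the replicate block and without both libraries in doubt.

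At GW day 70, Cnn1 and Tagln were lower, 2 of the 10 genes, against 6.81% of all tested genes. Cnn1 had a log2 fold change of -1.57 ± 0.45 (adjusted p = 0.0151), from 1107 ± 354 to 372 ± 84.8 CPM, and Tagln had -1.57 ± 0.44 (adjusted p = 0.0136), from 3165 ± 1151 to 1067 ± 335 CPM. In both, all 3 day 70 samples were below all 4 controls. The other 8 ran from -1.30 ± 0.48 for Mylk to -0.77 ± 0.55 for Synm, and 6 of the 10 had an unadjusted p under 0.05, against 12.2% of all tested genes that were lower. DESeq2 called 6, adding Mylk, Acta2, Lmod1 and Actg2, against 9.805% of all tested genes. Without GW day 70 replicate 2 no gene was called (Cnn1 -1.41, Tagln -1.35). Without GW day 70 replicate 1 there were 4, with Mylk and Lmod1 added, and without GW control replicate 1 of 22 days of diet also 4, with Mylk and Actg2 added.

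The diets were compared within each day. In controls 0 of the 10 genes differed in edgeR, against 0.0293% of all tested genes in either direction, with 0 at an unadjusted p of 0.05 and 0 in DESeq2. Of all tested genes 1.13% were lower and 0.422% higher at that unadjusted p, and 0.0586% each way in DESeq2. The control log2 fold changes of GW over STD ran from -0.51 ± 0.50 for Synm to -0.13 ± 0.44 for Acta2. At day 22 there were again 0, against 0.082% of all tested genes, with 0 at an unadjusted p of 0.05, where the shares of all tested genes were 4.98% lower and 5.34% higher, and 0 in DESeq2, where they were 0.557 and 0.5099%. At day 43 there were 0, against 0.0996% of all tested genes, with 1 (Mylk, 1.04 ± 0.50) at an unadjusted p of 0.05, where 7.103% of all tested genes were higher, and 0 in DESeq2, where 1.11% were lower and 0.979% higher. The median day 43 log2 fold change over the 10 genes was 0.75, against -0.02 over all tested genes. Without STD day 43 replicate 2, 1 gene, Acta2, was called higher on the GW diet.

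At day 70 all 10 genes had higher mean levels on the GW diet, and 1, Lmod1, passed, against 2.95% of all tested genes that were higher. Lmod1 was 48.7 ± 29.3 CPM on the GW diet and 13.5 ± 4.21 CPM on the standard diet (n = 3 each), a log2 fold change of 1.85 ± 0.46 (adjusted p = 0.03502). Myh11 followed with 1.70 ± 0.63 (adjusted p = 0.134), and 5 of the 10 had an unadjusted p under 0.05, against 14.5% of all tested genes that were higher. In 3 genes, Myh11, Lmod1 and Mylk, every GW sample was above every STD sample, against 10.5% of all tested genes. Mylk did so by a narrow margin, 266 against 265 CPM. The median was 1.07, against 0.03 over all tested genes.

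The Lmod1 call at day 70 changed with the fit and with single libraries. It was lost without a filter (1.84), with the ribosomal protein share as a term (1.67), with the replicate block (1.72) and with only the groups compared (1.87). Its log2 fold change was 1.24 without GW day 70 replicate 1, 1.73 without STD day 70 replicate 1, 2.15 without STD day 70 replicate 2 and 1.74 without STD day 70 replicate 3, and in none of these fits was it called. GW day 70 replicate 1 also held skeletal muscle RNA, with a summed CPM of 29304 over the 12 skeletal muscle markers, against 13.998 and 26.2 in the other GW day 70 samples. At STD day 70 the sums were 10.7, 959 and 194 CPM, against 34.2 to 88.9 in STD controls and 23.3 to 65.5 in GW controls. The part of that tissue in the levels of the 10 genes was not tested.

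Whether the change from controls differed between the diets was tested directly. At day 22 the count was 0 of the 10 genes and 0% of all tested genes in edgeR, with 0 of the 10 at an unadjusted p of 0.05 and 0 in DESeq2. The shares of all tested genes there were 2.14% lower and 3.19% higher at the unadjusted p, and 0.0996 and 0.152% in DESeq2. At day 43 it was 0 of the 10 and 0% of all tested genes, with 0 at an unadjusted p of 0.05, against 3.51% lower and 3.26% higher of all tested genes, and 0 in DESeq2, against 0.0703 and 0.129%. At day 70 it was 0 of the 10, against 0.00586% of all tested genes, with 4 at an unadjusted p of 0.05 (Lmod1, Synm, Myh11 and Des) and 1, Lmod1, in DESeq2. Over all tested genes 10.9% had a positive difference at that unadjusted p and 1.61% in DESeq2. GW day 70 replicate 1, the sample with skeletal muscle RNA, was the highest of its group for all 4 of these genes. The part of that tissue in these differences was not tested. The day 70 difference for Lmod1 was 2.06 ± 0.60 on the log2 scale (adjusted p = 0.159), and the median over the 10 genes was 1.33, against 0.04 over all tested genes. The comparisons of the 3 days with controls share those controls within each diet, so the control samples that stood high or low enter each of them.

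The genes did not keep their proportions at day 43. In STD controls Tagln made up 34.9% of the summed TPM of the 10 genes, and at STD day 43 66.6%. Over the same groups Myh11 went from 3.803% to 0.608% and Mylk from 4.19% to 1.13%. On the GW diet the share of Tagln was 35.7% in controls and 53.8% at day 43. At day 70 Tagln was at 31.1% on the standard and 29.8% on the GW diet. Actg2 made up 24.8% at STD day 70 and 17.3% in STD controls. These shares are descriptions, without a test.

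**Figure D3:**
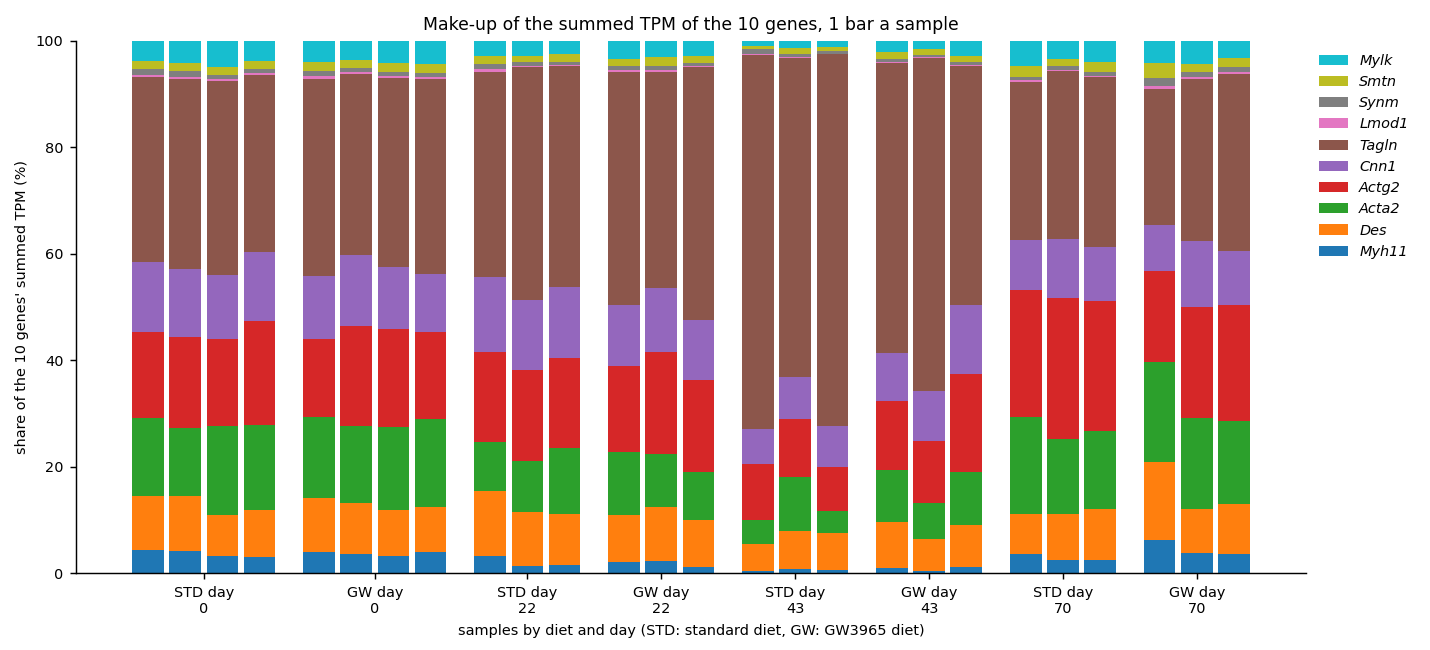
Share of each gene in the summed TPM of the 10 genes (percent), 1 stacked bar a sample, samples grouped by diet and day. The Tagln part widens at day 43, to a mean of 66.6% on the standard diet, and is 31.1% at STD day 70.

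Fold changes at day 43 followed transcript length across all tested genes. At STD day 43 the median log2 fold change was 0.84 for 5732 genes with a mean transcript length under 2000 bases, 0.03 for 6860 genes of 2000 to 4000, -0.45 for 2876 genes of 4000 to 6000 and -0.71 for 1595 genes of 6000 or more. At GW day 43 the same medians were 0.79, -0.01, -0.48 and -0.76. The medians also stepped down at day 22, with 0.19, -0.01, -0.16 and -0.24 on the standard diet. On the GW diet at day 22 they were 0.38, -0.01, -0.26 and -0.42. At STD day 70 they were 0.08, 0.10, -0.02 and -0.16. The 3 longest of the 10 genes, Synm (7031 bases), Myh11 (6473) and Mylk (6195), had the 3 lowest fold changes at STD day 43, and Tagln (1588) is among the shortest. All 10 genes were below the median of their own length class at day 43 on both diets, the short Acta2 (1993 bases) and Actg2 (1332) at -1.76 and -1.61 on the standard diet. The part of length in the day 43 values of the 10 genes was not tested.

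**Figure D4:**
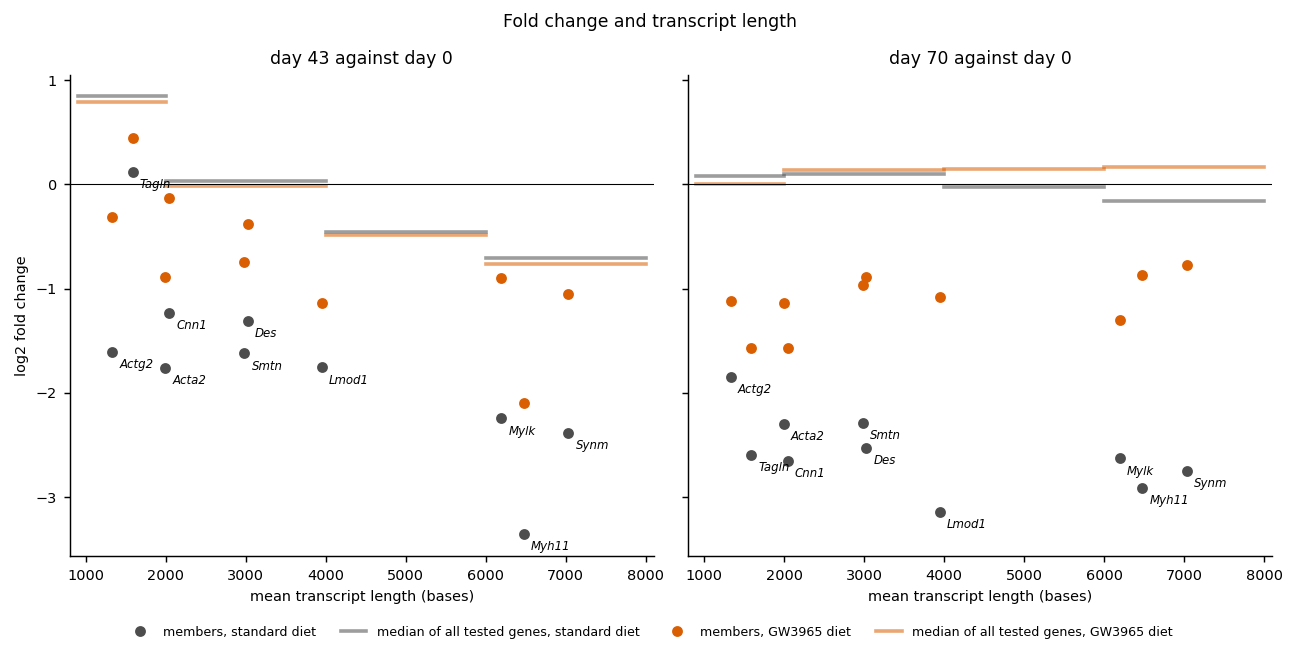
Log2 fold change of the 10 genes (points, names at the standard diet points) against mean transcript length in bases, at day 43 and day 70 against day 0, with horizontal lines at the median of all tested genes in each of 4 length classes. At day 43 the lines step down from 0.84 to -0.71 on the standard diet, and at day 70 they stay near 0.

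Transcript shares shifted in 4 of the genes. For each gene with at least 2 transcripts of 10% or more, the share of the most abundant transcript was compared with controls in a 2-sided exact permutation test over both diets with 1225 arrangements, whose smallest possible p is 0.0008, adjusted over 15 tests. As the mean of the diets, the share of Myh11-201 rose by 18.8 percentage points at day 22 (adjusted p = 0.0122), 28.1 on the standard and 9.47 on the GW diet, and by 20.4 at day 43 (adjusted p = 0.0262), 31.7 on the standard and 9.13 on the GW diet. At day 70 it differed by -1.41 (adjusted p = 0.864), with 4.63 on the standard and -7.45 on the GW diet. The share of Cnn1-201 rose by 11.7 at day 43 (adjusted p = 0.00816), 17.5 on the standard and 5.81 on the GW diet. That of Synm-201 fell by 39.1 (adjusted p = 0.00816), 54.4 on the standard and 23.8 on the GW diet, and that of Smtn-203 fell by 22.8 (adjusted p = 0.00816), 28.8 on the standard and 16.9 on the GW diet. Smtn-203 was the 1 share of the 5 that also passed at day 70, where it fell by 14.7 (adjusted p = 0.0122). At day 22 the share of Cnn1-201 rose by 4.53 (adjusted p = 0.0262), that of Synm-201 fell by 8.92 (adjusted p = 0.0354) and that of Smtn-203 fell by 9.57 (adjusted p = 0.0276). The share of Mylk-201 had an adjusted p of 0.0539 at day 43. All these shares come from estimated counts that kallisto assigns by a model to transcripts with shared bases.

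Myh11-204 differs from Myh11-201 by a 21-base exon that adds 7 residues, at chr16:14248580-14248600 on the minus strand (GRCm38). It also starts 7 bases and ends 113 bases inside Myh11-201. The exon, in capitals with 24 bases of the transcript on each side in lower case, is shown because its transcript was low at days 22 and 43 on the standard diet. Including this exon in the head of the myosin is a known feature of visceral smooth muscle.
Myh11-204 exon: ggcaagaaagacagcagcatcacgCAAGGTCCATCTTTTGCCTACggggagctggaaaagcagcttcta
Myh11-204 made up 25.3, 25.9, 35.6 and 22.96% of Myh11 in the STD controls, 4.14, 6.99 and 4.303% at STD day 22, 0, 3.58 and 2.798% at STD day 43 and 25.5, 31.4 and 18.9% at STD day 70. On the GW diet it made up 8.19, 22.1, 23.2 and 22.7% in controls, 19.97, 12.999 and 4.75% at day 22, 12.2, 1.94 and 26.9% at day 43 and 31.8, 24.8 and 20.02% at day 70. On the standard diet the samples of days 22 and 43 were all below the controls, and at day 70 replicate 3 alone was below them. In the GW groups of days 22 and 43 the samples were spread, with GW day 43 replicate 3 above every GW control. In STD day 43 replicate 1 the count was 0 of 2033.

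Synm-204 lacks a 2447-base exon of Synm-201. It had 0 counts in all 4 STD controls, of which the shallowest had 5916 Synm counts. Only reads over the differing bases tell transcripts apart, so no limit on a share is given for a count of 0. At STD day 22 it held 14.7, 4.67 and 10.03% of the Synm counts, with RIN values of 10, 9.6 and 9.8. At GW day 22 it held 2.5e-07% in replicate 1 (RIN 9.6), a count that rounds to 0, 5.09% in replicate 2 (RIN 9.3) and 30.1% in replicate 3 (RIN 9.1), and in GW control replicate 1 of 22 days of diet (RIN 10) it held 12.9%. At STD day 43 it held 95.4, 71.3 and 56.7%, with RIN values of 2.6, 8.4 and 7.8, and at GW day 43 42.9, 70.5 and 0%, with RIN values of 8, 6.8 and 9.3. At STD day 70 it had 0 counts in all 3 samples, of which the shallowest had 895 Synm counts. Smtn-201, the short form that shares its end with Smtn-203, held 58.5, 19.99 and 6.66% at STD day 43 against 8.67, 8.08, 6.62 and 3.17% in STD controls. For the first of these, 579 of 990 counts, the 95% Wilson interval is 55.4 to 61.5%, which takes the assigned counts as read counts and covers counting error only. The library with RIN 2.6 held the highest Synm-204 and Smtn-201 shares of all 26, and the part of RNA integrity in the transcript shares was not tested.

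**Figure D5:**
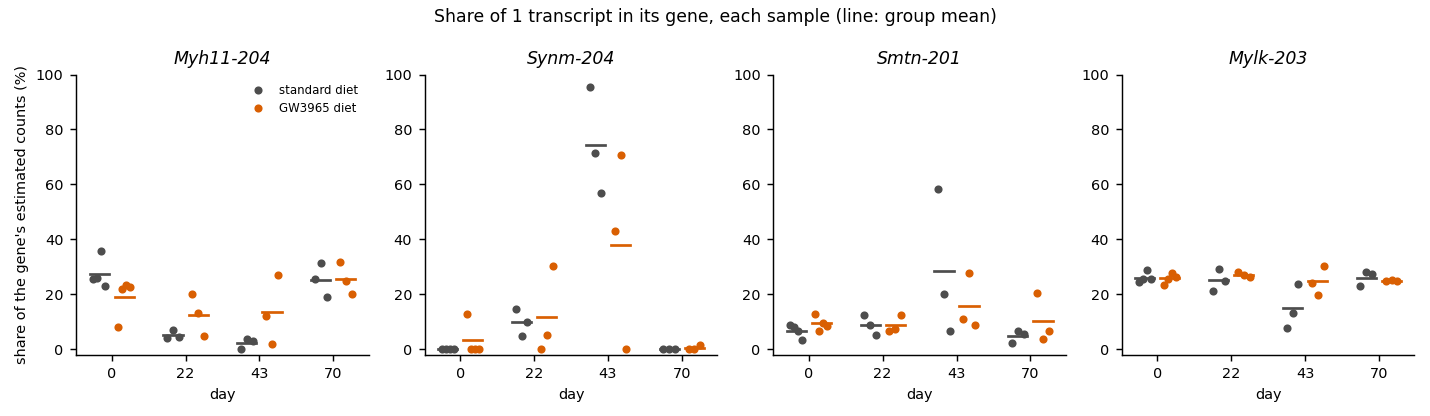
Share of Myh11-204, Synm-204, Smtn-201 and Mylk-203 in the estimated counts of their gene (percent) in each sample by day, standard diet and GW3965 diet in different colours, with lines at group means. Myh11-204 is low and Synm-204 high at STD day 43, and Synm-204 is at 0 at STD day 70.

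The same comparisons were made for other genes of the contractile machinery. Of 23 other apparatus genes, 15 were lower and 1 higher at STD day 43, with a median log2 fold change of -1.28, where 24.2% of all tested genes were lower and 30.8% higher. Among the strongest were Vcl (vinculin, -3.02 ± 0.46, adjusted p = 1.78e-05) and Dmd (dystrophin, -2.40 ± 0.47, adjusted p = 0.00024), and the gene that rose was Myl6. With the ribosomal protein share as a term, the day 43 calls of Vcl and Dmd were lost, with -0.56 for Vcl. At STD day 70, 18 were lower and 0 higher, median -1.96, where 13.7% of all tested genes were lower and 16.6% higher. They were led by Ppp1r14a, an inhibitor of myosin phosphatase (-3.13 ± 0.44, adjusted p = 6.45e-05), Myl6, the essential light chain (-1.26 ± 0.22, adjusted p = 0.00035), and Pgm5 (-2.85 ± 0.51, adjusted p = 0.000413). Vcl, the leading gene at day 43, had -0.18 ± 0.41 at day 70 (adjusted p = 0.777). Ppp1r14a, the leading gene at day 70, had 0.21 ± 0.39 at day 43 (adjusted p = 0.661).

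Among GW samples 5 apparatus genes were lower and 1 (Myl6) higher at day 43, against 19.3 and 25.9% of all tested genes, led by Vcl (-2.10 ± 0.44, adjusted p = 0.000653), which with the ribosomal protein share as a term had -0.70 and was not called. At GW day 70, 3 were lower, Myl6 (-1.09 ± 0.22, adjusted p = 0.00133), Ppp1r14a (-1.76 ± 0.41, adjusted p = 0.00423) and Csrp1, and 1, Ldb3, was higher (2.28 ± 0.63, adjusted p = 0.0136), against 6.81 and 14.7% of all tested genes. Ldb3 is also a gene of striated muscle, and without GW day 70 replicate 1, the sample with skeletal muscle RNA, its value was -0.59. Its call was lost there, with only the groups compared and in DESeq2, which gave it no p. The GW day 43 call of Myl6 was lost without GW day 43 replicate 2 (0.57), with the ribosomal protein share as a term (0.15) and with day 0 samples of the same days of diet (0.62). At day 22, 0 of the 23 were called on the standard diet in edgeR, with 4 at an unadjusted p of 0.05, against 8.35% of all tested genes, and 1 was lower on the GW diet, against 7.02% of all tested genes. It was Vcl (-1.56 ± 0.42, adjusted p = 0.0127), which was not called without GW day 22 replicate 3 (-1.30) or with day 0 samples of the same days of diet. At day 70 between diets 0 of the 23 passed in edgeR, against 2.95% of all tested genes that were higher, with 11 at an unadjusted p of 0.05, against 14.5% of all tested genes, and a median of 1.05.

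Of 6 transcriptional regulators, 3 were lower and 1 (Mrtfa) higher at STD day 43, against 24.2 and 30.8% of all tested genes. Mrtfb had -1.55 ± 0.26 (adjusted p = 4.89e-05), Myocd, which encodes myocardin, -3.40 ± 0.68 (adjusted p = 0.000271) and Srf -1.44 ± 0.36 (adjusted p = 0.002099). At STD day 70, 3 were lower, against 13.7% of all tested genes: Foxf1 (-1.16 ± 0.25, adjusted p = 0.00173), Myocd (-2.89 ± 0.66, adjusted p = 0.002499) and Srf (-0.94 ± 0.35, adjusted p = 0.0477). The day 70 call of Srf was lost without any 1 of the 3 day 70 samples, and without STD controls replicates 1 or 2 of 22 days or replicate 1 of 43 days of diet, with values from -1.06 to -0.69 as each sample was left out, and also without a filter and with the replicate block. Mrtfb had -0.09 ± 0.25 at STD day 70 (adjusted p = 0.824). With GW3965 Mrtfb was lower at day 22 (-1.17 ± 0.26, adjusted p = 0.00319) and day 43 (-1.55 ± 0.26, adjusted p = 0.000103), and at day 70 Foxf1 was lower (-0.95 ± 0.25, adjusted p = 0.008503) and Mef2c higher (2.27 ± 0.60, adjusted p = 0.0103). The day 43 calls of Mrtfb, Myocd and Srf were lost with the ribosomal protein share as a term, and that of Srf also with RIN as a term (-0.29) and with only the groups compared (-1.43). Mef2c, a factor of striated muscle as well, had 0.36 at GW day 70 without replicate 1, and its call was lost there and with only the groups compared.

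Of 16 calcium, channel and receptor genes, 12 were lower at STD day 43 and all 16 at STD day 70, against 24.2 and 13.7% of all tested genes, with medians of -1.93 and -2.38. The day 43 calls of Pde5a, Kcnma1 and Chrm2 named here, on either diet, were lost with the ribosomal protein share as a term. At STD day 43 Pde5a, the phosphodiesterase of cyclic GMP, had -2.09 ± 0.30 (adjusted p = 1.05e-05), Kcnma1, the pore of the large-conductance potassium channel, -2.87 ± 0.46 (adjusted p = 3.28e-05) and Chrm2, a muscarinic receptor, -2.56 ± 0.52 (adjusted p = 0.000332). The leading genes at STD day 70 were Gucy1a1, a subunit of the nitric oxide receptor (-2.98 ± 0.43, adjusted p = 9.05e-05), Kcnmb1 (-2.50 ± 0.42, adjusted p = 0.000281) and the tachykinin receptor gene Tacr2 (-3.82 ± 0.67, adjusted p = 0.000355). Pde5a was already lower at day 22, on the standard (-1.12 ± 0.29, adjusted p = 0.0163) and the GW diet (-1.02 ± 0.29, adjusted p = 0.01603), where Gucy1b1 was the other of 2 called, against 7.02% of all tested genes. The STD day 22 call of Pde5a was lost without day 22 replicate 2, day 22 replicate 3 or control replicate 2 of 22 days of diet, with -0.88 in the last, and the GW day 22 call without replicate 2 or replicate 3, with the ribosomal protein share as a term (-0.79) and with day 0 samples of the same days of diet (-0.82). That of Gucy1b1 was lost without any 1 of 6 of the 7 samples and also without a filter, with the ribosomal protein share as a term, with the replicate block, without both libraries in doubt and with day 0 samples of the same days of diet. The Gucy1b1 log2 fold change was -0.94 in the main fit and ran from -1.04 to -0.81 over the alternatives. With GW3965, 5 of the 16 were lower at day 43, against 19.3% of all tested genes, led by Pde5a (-1.27 ± 0.29, adjusted p = 0.00148), and 2 at day 70, Pde5a (-1.16 ± 0.29, adjusted p = 0.00679) and Kcnmb1 (-1.15 ± 0.40, adjusted p = 0.0411), against 6.81% of all tested genes. The latter was lost without any 1 of 5 of the 7 samples, with -0.99 without GW day 70 replicate 2, and also without a filter, with the replicate block and without both libraries in doubt.

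Between diets at day 70, Gucy1a1 (2.20 ± 0.44, adjusted p = 0.0142), Prkg1, the kinase of cyclic GMP (2.15 ± 0.52, adjusted p = 0.0309), and Mef2c (3.49 ± 0.70, adjusted p = 0.0149) were higher on the GW diet. Without GW day 70 replicate 1 the values were 1.43, 0.93 and 1.60, and none was called. None of the 3 was called without STD day 70 replicate 1 or without STD day 70 replicate 3, and the calls of all 3 were lost with the replicate block and with only the groups compared. Prkg1 was also lost without STD day 70 replicate 2 and with the ribosomal protein share as a term.

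Markers of neighbouring cell types moved in part with the 10 genes. For their counts, of all tested genes 24.2% were lower and 30.8% higher at STD day 43, 13.7 and 16.6% at STD day 70, and 6.81 and 14.7% at GW day 70. Among enteric glia markers 4 of 4 were lower at STD day 70, median log2 fold change -3.28, and the summed CPM went from 32.4 ± 14.6 in STD controls to 3.82 ± 1.17. Of the 9 tested enteric neuron markers, led by Vip, 6 were lower at STD day 70, with summed CPM from 92.5 ± 18.3 to 40.9 ± 11.6, and Chat was at 0 in 3 of the 26 samples. At GW day 70 the glial sum was 18.8 ± 9.11 CPM and 1 of 4 was lower, and the neuron sum was 88.9 ± 68.5 CPM against 119 ± 30.7 in GW controls, with 4 of 9 lower. The glial sum at STD day 43 was 26.99 ± 21.4 CPM with 1 of 4 lower, while 9 of the 10 contractile genes were lower there. The neuron sum at STD day 43 was 128 ± 5.64 CPM, with every sample above the highest STD control (111 CPM). This describes a sum led by its most abundant markers, without a test, and the count of neuron markers called there is not given.

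Of 3 markers of interstitial cells of Cajal, led by Ano1, 2 were lower at STD day 43 and 2 at STD day 70, with summed CPM of 227 ± 29.96, 134 ± 88.9 and 204 ± 92.5 in STD controls, day 43 and day 70. Of 7 pericyte markers, led by Rgs5, 1 was lower and 2 higher at STD day 43, and 3 were lower at STD day 70, where the median was -0.01 and the sum 161 ± 27.3 CPM against 315 ± 100.5 in controls. The 7 fibroblast markers, led by Col3a1, had 4 higher and 0 lower at STD day 43, where their sum was 4973 ± 538 CPM against 1722 ± 514 in controls, and 1 higher and 2 lower at STD day 70. Of 5 markers of activated fibroblasts, led by Postn, 3 were higher at STD day 43 and 1 higher and 1 lower at STD day 70, and Lrrc15 was at 0 in 1 sample. None of these marker lists fell as far at STD day 70 as the 10 genes by median except enteric glia and adipocytes.

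The stratified epithelium markers, led by Krt13, were higher in 9 of 9 at days 43 and 70 on both diets. Their sum was 8.09 ± 1.27 CPM in STD controls, 1019 ± 643 at STD day 43 and 4573 ± 1006 at STD day 70, and Krt13 was at 0 in 2 samples. At GW day 70 the sums were 30118, 6.78 and 13903 CPM, against 6.21 to 7.33 in GW controls. Replicate 2, which was within that range, is the library without which neither Cnn1 nor Tagln was called at GW day 70. Skeletal muscle markers, led by Acta1, were higher in 6 of 12 at STD day 70 and 12 of 12 at GW day 70, where Acta1 reached 5910 CPM in replicate 1. Their summed levels were above those of all controls of the diet in STD day 70 replicates 2 and 3 and, at GW day 70, in replicate 1 alone. At day 43 they were above them in STD replicate 1 (205 CPM) and GW replicate 3 (437 CPM). Myh4 was at 0 in 19 of the 26 samples. The 4 leukocyte markers, led by Coro1a, had 4 higher at STD day 22, where 7.55% of all tested genes were higher, 3 at STD day 43 and 0 at STD day 70, with a sum of 175 ± 94.1 CPM in STD controls and 922 ± 553 at STD day 43. Of 11 simple epithelium markers, 6 were lower at STD day 43, and 2 were lower and 2 higher at STD day 70. Of 4 endothelial markers, led by Pecam1, 2 were lower at STD day 43 and 1 at STD day 70. Of 4 adipocyte markers, led by Cidec, 4 were lower at STD day 70, with Adipoq at 0 in 5 samples, and of 2 tested mesothelium markers, led by Msln, 1 was higher there, with Wt1 at 0 in 3 samples. The part of each of these cell types in the values of the 10 genes was not tested.

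Genes whose log2 CPM over the 26 samples was much like the mean of the 10, each scaled, included Tmem252 (Pearson r = 0.984), Nkd2 (0.982), Myl9 (0.974), Stum (0.974), Dact3 (0.973), Mrvi1 (0.971), Kcnmb1 (0.971), Tspan2 (0.969) and Flna (0.969). Of these, Myl9, Mrvi1, Kcnmb1 and Flna were already among the listed contractile genes. At GW day 70 Dact3 (-1.38), Tspan2 (-1.27) and Kcnmb1 were called lower. Myl9 (-1.33), Mrvi1 (-1.31), Tmem252 (-1.29), Stum (-1.19), Nkd2 (-1.04) and Flna (-0.61) were not called there.

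Reads of some of the genes could also come from other genes. Each gene's transcripts were split into all stretches of 31 bases, and the share found in transcripts of another gene on either strand was counted, since the strand setting of the libraries is not given in the sources used here. Tagln shared 62.2% of its stretches, 58.2% with Gm48529 on the other strand, which is not analysed here, and 3.93% with Pcsk7, which reached at most 96.7 CPM. Smtn shared 12.003%, Synm 5.67%, Mylk 5.52% and Des 5.28%, mostly with genes on the other strand that are not analysed here. Acta2 shared 1.39%, Actg2 1.21% and Myh11 0.905%, the latter mostly with Myh9, and Cnn1 and Lmod1 shared 0. Acta2 and Actg2 shared 0% with each other and 0% with Acta1, the skeletal actin that was high in GW day 70 replicate 1. Tagln thus had the largest shared part of the 10.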

How the data were processed

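RNA of 26 colon samples was sequenced as polyA libraries. Per the labels and methods, reads were assigned with kallisto to GRCm38 transcripts by the authors, whose tables, 1 a sample, hold estimated counts of each transcript without further normalization. The deposited TPM values were made by kallisto from the same counts and its effective lengths. The kallisto version and the Ensembl release are not given in the sources used here.

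Transcript identifiers without version were matched to GENCODE vM21 gene names (116728 of 119414, 97.75%), and 0.615 to 0.999% of counts a sample were unmatched. Estimated counts were summed to 35975 genes and rounded. Total counts were 18195345 to 41522204 a sample. edgeR 4.0.16 (R 4.3.3, limma 3.58.1) was used with TMM factors, filterByExpr over the 8 groups (17063 genes) and robust quasi-likelihood F-tests in 1 fit of all samples, with Benjamini-Hochberg adjustment over all tested genes and a threshold of 0.05. Correlations used log2 CPM with a prior count of 2. Python 3.11.15, pandas 2.3.3, numpy 2.4.6, scipy 1.17.1 and matplotlib 3.10.9 were used for tables, exact permutation tests and figures. The fit was tested on simulated data: of 53 genes with a log2 fold change of -2, 51 were called, and of 50 with -1, 14.

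The 10 genes and the other lists were chosen with earlier results of these data known. Besides the 10 genes, the genes named were taken from the 3 with the smallest p of each list of contractile genes in a comparison, from the 10 other genes most correlated with the mean of the 10, and from the most abundant marker of each cell type. Other genes named (Vcl, Ppp1r14a, Mrtfb and Ldb3 where they were not among the 3, and markers at 0) were chosen after their values were seen.

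Alternatives were median-of-ratios size factors, no filter on low counts, the DESeq2 1.42.0 Wald test (genes it gave no p counted as not called), the share of 88 ribosomal protein genes or RIN as a term, a replicate block, only the groups compared, and each sample left out. For the summed share, TPM replaced counts. For transcript shares, a minimum of 5% replaced 10%, and the RIN 2.6 library was left out. Chosen after seeing the data were leaving out both libraries in doubt and using only controls of the same days of diet. The correction for ribosomal RNA that the methods mention was not applied, since its percentage is not analysed here.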

Additional observations from a re-analysis of the deposited data

Results flagged for a closer look

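Of 87 groups of 4 samples, 10 held a sample far from the other 3, and chance flags about 1 in 20 groups. All 10 were controls, the only groups of 4. In STD control replicate 2 of 22 days of diet, Actg2 (2752 CPM), Cnn1 (2516 CPM) and Tagln (6887 CPM) were far above the other 3 samples.

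STD control replicate 1 of 43 days of diet had a summed leukocyte marker level of 314.8 CPM, far above the other 3, and a Myh11-201 share of 46.33%, far below them. STD control replicate 2 of 43 days of diet had far values of the shares of Smtn-202 (30.19%) and Smtn-203 (63.32%). GW control replicate 1 of 22 days of diet had Cnn1 at 579.2 CPM and a Myh11-204 share of 8.187%, both far below the other 3, and a Synm-204 share of 12.9%, far above them. In the diet comparison of the changes from controls, edgeR called 0 differences of the 10 genes, and DESeq2 called 1, Lmod1 at day 70.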

How the results depend on the processing

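Of 24 calls of single genes among the 10, 10 were kept under every alternative, all at STD day 70, and 0 reversed. Calls lost were 12 with the ribosomal protein share as a term, 9 with RIN as a term, 4 with only the groups compared, 4 without both libraries in doubt, 3 without a filter, 2 with the replicate block, and 0 with median-of-ratios factors or DESeq2. The last of the added alternatives, controls of the same days of diet, lost 4 of 11. Both added alternatives were chosen after seeing the data. The ribosomal protein share and RIN did not overlap between day 43 and control samples of either diet. Day 43 calls lost with these terms therefore cannot separate the term from the change. Apart from DESeq2, the shares of all tested genes called under the alternatives are not given here.

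DESeq2 called 1 gene at STD day 22, 6 at GW day 70 and 1 in the day 70 difference. With the ribosomal protein share as a term the counts were 0 at STD day 43, 0 at GW day 43, 4 at GW day 70 and 0 between diets at day 70, and the log2 fold change of Tagln at STD day 43 was -0.49. With RIN as a term they were 1 at STD day 43, 1 at GW day 43 and 3 at GW day 70. With median-of-ratios factors the GW day 70 count was also 3, in place of 2. Without a filter they were 8 at STD day 43, 1 at GW day 43 and 0 between diets at day 70. Only the groups compared gave 6 in place of 9 at STD day 43, 2 at GW day 22 and 0 between diets at day 70. Controls of the same days of diet gave 5 at STD day 43, and leaving out both libraries in doubt gave 1 at GW day 43. The cause was not tested.

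Same-numbered samples do not pair: over 13 pairs the mean correlation of deviations was -0.0661. With the replicate block 1 gene was called at GW day 43 and 0 between diets at day 70.

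As each sample was left out, the count ran from 0 to 5 at GW day 43, from 0 to 4 at GW day 70, from 0 to 1 between diets at day 43 and from 0 to 1 between diets at day 70. Tagln at STD day 43 ran from -0.06865 to 0.57 and Ldb3 at GW day 70 from -0.59 to 2.80. By TPM in place of counts, the summed share of the 10 genes at GW day 22 over GW controls was 0.617 in place of 0.7198, at STD day 43 over STD controls 0.2752 in place of 0.3751 and at GW day 43 over GW controls 0.5156 in place of 0.652. All 15 transcript share tests kept their side of the threshold. The cause was not tested.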
